A study of Mus musculus with 12 samples.

Results

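The cytochrome P450 family 2 genes of the mouse (Cyp2) were taken as every gene of the expression table whose symbol is Cyp2 followed by a subfamily letter and a number. They were 47 of 21004 genes, in 13 subfamilies: 15 members in Cyp2c, 8 in Cyp2d, 7 in Cyp2j, 5 in Cyp2b, 4 in Cyp2a and 1 in each of 8 others. They were followed by RNA sequencing of whole liver from outbred ICR mice aged 8 weeks, in 12 libraries. Of the 4 groups of 3 libraries, 1 was labelled control, 1 received busulfan, 1 received L.J. (10 mg/kg) and 1 received both agents (L.J. again at 10 mg/kg), so strain, age and tissue were shared by all groups. Busulfan is a DNA alkylating drug. The labels give neither its dose nor its timing, nor the sex of the animals, and they do not spell out what L.J. is. The title of the series speaks of L.J. countering harm done by busulfan, while its design text names FMT in that role, and how FMT relates to L.J. is not given. Nothing in the labels says that replicates were separate animals, so the p-values rest on a spread that may be technical. Levels are FPKM (fragments per length of transcript, scaled to library size), given as mean ± SD over 3 libraries, and the depth of the libraries is unknown.

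P450 enzymes of family 2 sit in the endoplasmic reticulum, take electrons from NADPH-P450 oxidoreductase (Por) and cytochrome b5, and insert 1 oxygen atom into drugs, solvents, steroids, arachidonic acid and other lipids. In hepatocytes many of these genes are held on by HNF4A and C/EBP factors and are induced by foreign compounds through the nuclear receptors CAR and PXR. In the mouse, several members also differ between the sexes, because the pulse pattern of pituitary growth hormone acts on the liver through STAT5. Inflammation is known to lower many hepatic P450 transcripts. In a bulk sample, fewer cells of a type and less RNA per cell cannot be told apart.

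Hepatocyte markers summed to between 43982 and 75810 FPKM in the 12 libraries, and Y-linked transcripts to between 50.8 and 65.4 FPKM, so each library held hepatocyte RNA and RNA from male liver. The L.J. libraries 1 and 3 stood apart. The major urinary protein genes, abundant in male liver, held 1.36% and 0.0956% of all FPKM there and between 11.7% and 36.7% in the other 10 libraries, L.J. replicate 2 included. Acute-phase genes summed to 36519 and 29925 FPKM in L.J. replicates 1 and 3, to 8348 in L.J. replicate 2 and to between 5883 and 7511 in control. Neutrophil markers summed to 132, 6.44 and 70.2 FPKM in L.J. replicates 1, 2 and 3 and to between 0.77 and 2.09 in control, with all 5 markers above 0 in L.J. replicates 1 and 3 and Camp at 0 in all controls. For the comparisons with the L.J. group, counts and main values are therefore also given without these libraries, which leaves L.J. replicate 2 as the group, with a spread taken from the other groups.

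Neighbouring members are close copies, and this bears on how well their reads can be told apart. Of the 47 coding sequences in GENCODE M21, 26 shared more than 10% of their 50-base words with another gene or pseudogene of the family, and 12 shared none, among them Cyp2e1, Cyp2f2, Cyp2u1, Cyp2c23 and Cyp2c70. How the authors assigned reads that fit several genes is not given in the sources used here, so levels of close copies are uncertain as to which member they belong to. The pair Cyp2a4 and Cyp2a5 was 98.4% identical over the coding sequence, and its first 90 coding bases are shown because a short read from here meets 1 difference, in capitals (mm10, plus strand; Cyp2a4 chr7:26307218-26307307, Cyp2a5 chr7:26835364-26835453).
Cyp2a4: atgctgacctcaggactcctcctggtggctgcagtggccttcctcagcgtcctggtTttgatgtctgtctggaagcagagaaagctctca
Cyp2a5: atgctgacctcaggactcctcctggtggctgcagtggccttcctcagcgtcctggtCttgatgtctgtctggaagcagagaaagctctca

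The neighbours Cyp2c67, Cyp2c68 and Cyp2c69 in the Cyp2c cluster are shown for the same reason, since they lay on different sides of control in the L.J. libraries. Cyp2c67 was 97.7% identical to Cyp2c69 and 97.1% identical to Cyp2c68 in coding sequence, and their first 90 coding bases differ at 4 positions, in capitals (mm10, minus strand; Cyp2c67 chr19:39648941-39649030, Cyp2c68 chr19:39740952-39741041, Cyp2c69 chr19:39886618-39886707).
Cyp2c67: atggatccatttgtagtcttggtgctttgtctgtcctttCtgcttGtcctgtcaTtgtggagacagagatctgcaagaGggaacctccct
Cyp2c68: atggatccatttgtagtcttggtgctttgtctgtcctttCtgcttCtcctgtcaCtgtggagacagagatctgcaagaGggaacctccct
Cyp2c69: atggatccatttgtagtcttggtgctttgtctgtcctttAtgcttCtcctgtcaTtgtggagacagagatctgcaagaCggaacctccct

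Upstream sequence was available from RefSeq (GRCm38.p6) for 40 of the 47 members, as 250 bases before an annotated start site. Cyp2b9 and Cyp2b13 had 248 of these 250 bases in common (99.2%), against 92.7% identity in their coding sequences, and both were highest in L.J. replicates 1 and 3. The 143 bases of their windows that lie outside both annotated genes are shown, with the 2 differences in capitals (plus strand; Cyp2b9 chr7:26173159-26173301, Cyp2b13 chr7:26061245-26061387).
Cyp2b9: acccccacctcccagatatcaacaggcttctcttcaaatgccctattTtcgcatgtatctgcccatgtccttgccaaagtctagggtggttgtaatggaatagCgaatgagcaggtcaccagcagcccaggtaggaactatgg
Cyp2b13: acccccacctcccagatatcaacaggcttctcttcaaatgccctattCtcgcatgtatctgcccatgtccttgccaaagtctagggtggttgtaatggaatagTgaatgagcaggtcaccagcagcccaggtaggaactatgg

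Cyp2c67 and Cyp2c69 lay on opposite sides of control in L.J. replicates 1 and 3. Their upstream windows were identical at 187 of 300 aligned positions (62.3%). The windows begin at different points of related sequence, so gaps took 100 of the 300 positions and count as not identical. They are shown outside the annotated genes, with matches to CAAAGTCCA (an HNF4A word) and TTGCNNAA (a C/EBP word, N being any base), searched on both strands, in capitals (minus strand; Cyp2c67 chr19:39649080-39649292, Cyp2c69 chr19:39886770-39887019). The 2 words do not overlap each other in either window.
Cyp2c67: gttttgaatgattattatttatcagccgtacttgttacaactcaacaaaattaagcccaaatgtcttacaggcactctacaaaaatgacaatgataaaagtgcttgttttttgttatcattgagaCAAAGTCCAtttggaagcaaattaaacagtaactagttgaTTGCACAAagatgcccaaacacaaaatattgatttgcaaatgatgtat
Cyp2c69: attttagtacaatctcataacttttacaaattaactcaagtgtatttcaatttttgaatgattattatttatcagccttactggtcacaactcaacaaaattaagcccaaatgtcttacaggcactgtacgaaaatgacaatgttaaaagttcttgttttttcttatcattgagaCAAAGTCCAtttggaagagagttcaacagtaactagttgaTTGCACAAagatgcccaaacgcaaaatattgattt
The HNF4A word starts 125 bases before the start site in Cyp2c67 and 75 bases before it in Cyp2c69, and was also present in Cyp2c40, Cyp2c65, Cyp2c68 and Cyp2c70. It was found in 14.3% of the 42 windows of the family and in 0.384% of all 32851 RefSeq windows of that length. The C/EBP word was in 28.6% of the family's windows and in 9.56% of all. The STAT5 word TTCNNNGAA was in 4.76% and 7.02%, and in none of the 29 windows of members that were tested below. Many of the family's windows with a word belong to close copies, such as Cyp2c40, Cyp2c67, Cyp2c68 and Cyp2c69, or Cyp2b9 and Cyp2b13. Such windows are not independent, so the family's shares cannot be read as a trait that arose in many members. These are matches of letters in a short window and say nothing of binding.

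In control liver the family was carried by a few genes. All members together summed to 9090 ± 57.0 FPKM (n = 3), which was between 1.37% and 1.63% of all FPKM. Cyp2e1, which oxidises ethanol and paracetamol near the central vein, read 2911 ± 474 FPKM and held 32.0% of the family's sum. Next came Cyp2c29, an arachidonic acid epoxygenase, at 1203 ± 118 FPKM, and Cyp2f2, a periportal enzyme known for activating naphthalene, at 1092 ± 72.5 FPKM. Cyp2d9, a steroid hydroxylase known to be higher in male mice, read 624 ± 101 FPKM, and Cyp2c70, which makes the muricholic acids of mouse bile, read 558 ± 25.9 FPKM. These 5 genes held 70.3% of the sum, the first 10 held 88.8% and the first 20 held 99.0%.

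In all, 14 members were at or above 100 FPKM in control, 9 lay between 10 and 100, 9 between 1 and 10, and 15 below 1. Going down the order, neighbours whose control libraries did not overlap were Cyp2e1 and Cyp2c29, Cyp2f2 and Cyp2d9, Cyp2c70 and Cyp2c67, Cyp2j5 and Cyp2c23, Cyp2c50 and Cyp2c54, and Cyp2c55 and Cyp2b13. All other neighbours overlapped, so their order is not settled by 3 libraries. Cyp2j5, an epoxygenase of liver and kidney, read 307 ± 22.3 FPKM, Cyp2r1, a vitamin D hydroxylase, 4.62 ± 2.02 FPKM and Cyp2u1, a fatty acid hydroxylase, 7.61 ± 2.67 FPKM. Cyp2b19, known from skin, and Cyp2j12 were listed at 0 in all 12 libraries. Members that are known from nose, skin or other epithelia stayed low, with Cyp2g1 at 0.0667 ± 0.0252 FPKM and Cyp2s1 at 0.223 ± 0.137 FPKM in control.

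**Figure D1:**
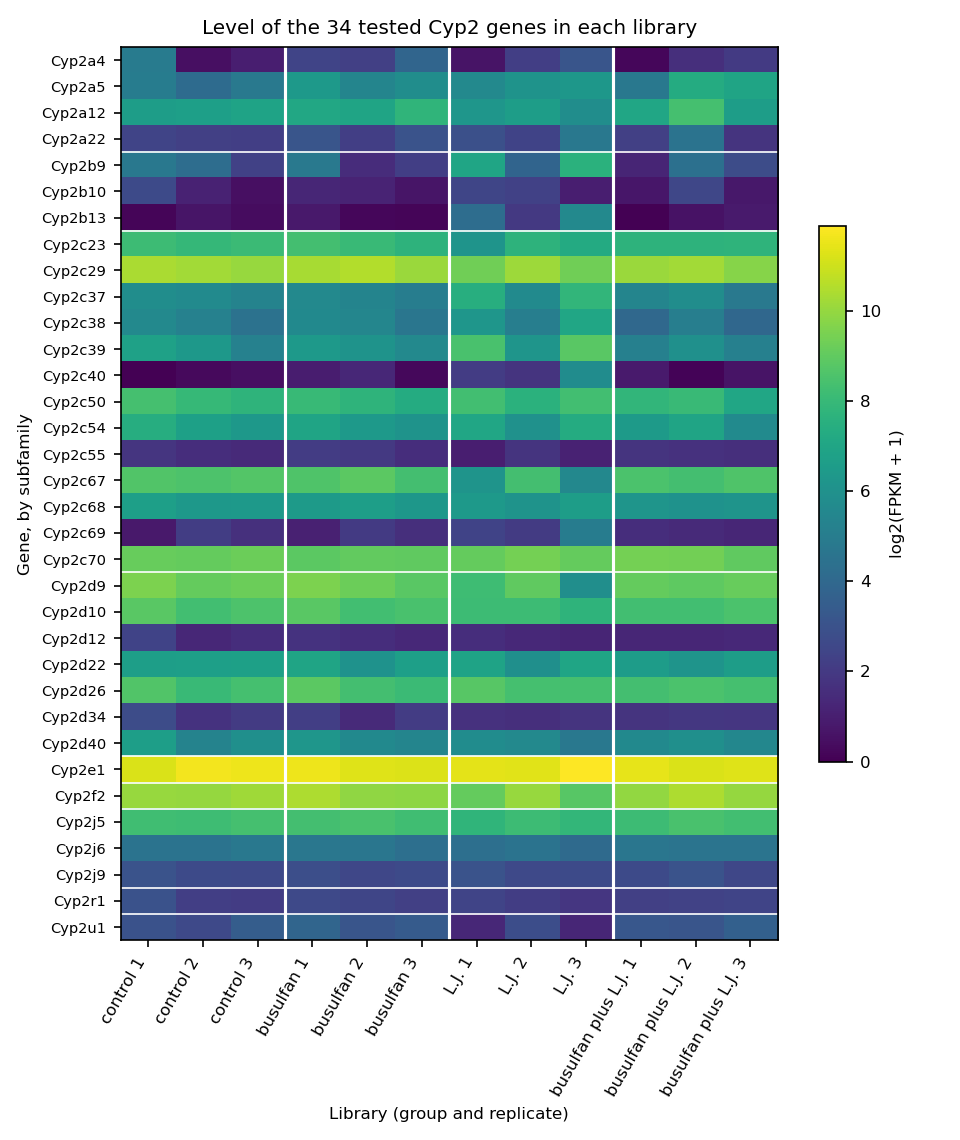
Level of each of the 34 tested Cyp2 genes (rows, by subfamily) in each of the 12 libraries (columns, by group), as log2(FPKM + 1) on the colour scale. Cyp2e1 is the brightest row in every group, and the rows of Cyp2b13, Cyp2c39 and Cyp2c67 stand out in L.J. 1 and L.J. 3.

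The sum of the family was 8871 ± 1200 FPKM with busulfan, 8041 ± 571 with L.J. and 8390 ± 559 with both. As a share of all FPKM outside the major urinary protein genes it was 1.84%, 2.13% and 2.03% in the control libraries and 1.46%, 1.77% and 1.65% in L.J. replicates 1, 2 and 3, while as a share of all FPKM the 2 groups overlapped. By subfamily, the Cyp2b sum was 18.7 ± 13.7 FPKM in control and 136 ± 110 with L.J., and the Cyp2f sum, which is Cyp2f2, was 1092 ± 72.5 and 675 ± 327. The Cyp2c sum was 3061 ± 279 FPKM in control and 2710 ± 217 with L.J., with overlap, while its members differed in both directions. The Cyp2d sum was 1513 ± 272 and 1060 ± 264 FPKM, and the Cyp2a sum 145 ± 18.8 and 155 ± 24.0 FPKM, with 300 ± 188 FPKM in livers given both.

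**Figure D2:**
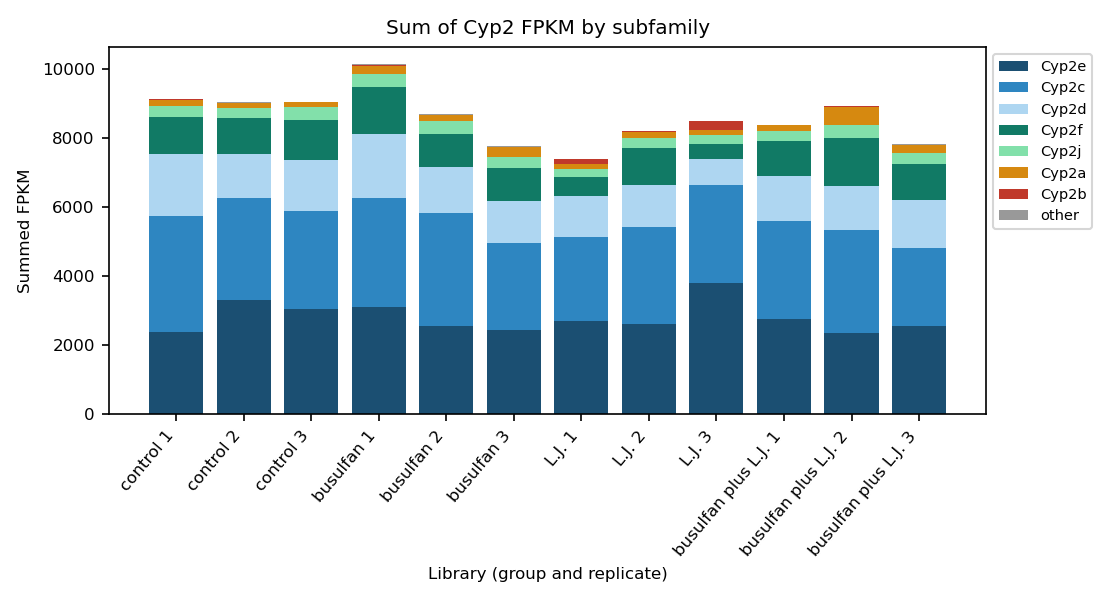
Sum of FPKM over the Cyp2 genes in each library, as stacked bars from 0, divided by subfamily. The bars run from 7400 FPKM in L.J. 1 to 10146 FPKM in busulfan 1, and the red Cyp2b segment is widest in L.J. 1 and L.J. 3, at 149 and 239 FPKM.

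Some abundant members had means close to control in every group, and others were lower in the L.J. libraries. Cyp2d26 read 333 ± 66.7 FPKM in control, 357 ± 99.6 with busulfan, 368 ± 61.2 with L.J. and 336 ± 22.3 with both. Cyp2d22 read 104 ± 3.62, 97.5 ± 29.5, 102 ± 37.3 and 87.7 ± 15.3 FPKM in the same order. The groups overlapped control, except that Cyp2d22 lay below all controls in the libraries given both. Its L.J. libraries lay on either side of the control range of 102 to 108 FPKM and not within it. Replicate 2 was at 59.0 FPKM (log2 fold change -0.81 for that library alone), and the others were at 120 and 127. Cyp2c54, an epoxygenase next to Cyp2c50 and 95.2% identical to it, read 119 ± 44.9, 91.4 ± 27.7, 116.6 ± 47.2 and 87.2 ± 36.6 FPKM. Of the Cyp2j genes above 1 FPKM, Cyp2j5 read 307 ± 22.3, 327 ± 24.2, 245 ± 34.9 and 317 ± 38.4 FPKM, and its L.J. libraries, at 219, 285 and 232, all lay below the lowest control, 288. Cyp2j6 read between 16.2 and 25.9 FPKM and Cyp2j9 between 4.72 and 7.36 over the 12 libraries. Cyp2d10 read 453, 309 and 375 FPKM in control and 286, 281 and 213 with L.J., again without overlap, and Cyp2d40 65.8 ± 30.5 and 42.5 ± 14.5 FPKM, with overlap. The low members Cyp2d12, Cyp2d34, Cyp2c55 and Cyp2r1 stayed under 7 FPKM in every library.

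Of the 47 members, 34 reached 1 FPKM in 3 or more libraries and were tested on log2(FPKM + 1) with limma, in 1 fit over all genes that passed. Cyp2b13 and Cyp2c40 passed only through the L.J. libraries, so they had to differ there, and counts over the 34 are descriptions. The 13 others were below that level. One of them, Cyp2b23, was listed at 0 in 9 libraries and read 0.40, 0.06 and 0.37 FPKM in the L.J. libraries. With Benjamini-Hochberg adjustment over all 10786 genes, no member passed 0.05 in any of the 6 comparisons.

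Busulfan against control asked what the drug alone does. On the log2(FPKM + 1) scale the highest difference was in Cyp2a5, which hydroxylates coumarin and nicotine. Its FPKM were 30.5, 16.8 and 27.2 in control and 84.3, 40.9 and 55.7 with busulfan. Each busulfan library lay above each control library. Its log2 fold change was 1.23 (SE 0.54; unadjusted p = 0.0439 and adjusted p = 1 in limma). Its close copy Cyp2a4, a steroid hydroxylase, read 30.1, 0.42 and 1.02 FPKM in control and 4.43, 3.69 and 13.6 with busulfan, so control replicate 1 held as much Cyp2a4 as Cyp2a5. Cyp2a12 read higher too, at 106 ± 10.2 FPKM in control and 161 ± 53.1 with busulfan, without overlap. Cyp2a22, at 3.92 ± 0.471 and 6.18 ± 2.18 FPKM, overlapped control.

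No member passed, and no gene of the whole table did (0%). At an unadjusted p under 0.05 it was 1 of the 34, beside 1.29% of all genes (0.983% higher), and between 0 and 2 with 1 library left out. With the replicate number as a block in the fit it was 0. The groups did not overlap for 3 members, Cyp2a5 and Cyp2a12 higher and Cyp2c70 lower, beside 5.92% of all genes (4.56% higher and 1.36% lower). After Cyp2a5, the members with the smallest p were Cyp2a12 (log2 fold change 0.56), Cyp2c55 (0.30), Cyp2c50 (-0.34) and Cyp2d34 (-0.28), each at an adjusted p of 1. Cyp2d34 was at 0.01 without control replicate 1. The median log2 fold change of the 34 was -0.03, and that of all genes 0.04. Cyp2e1 read 2699 ± 367 FPKM and Cyp2c29 1276 ± 178 with busulfan, and both overlapped control.

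L.J. against control showed the widest differences in the family, in both directions, and they came with L.J. replicates 1 and 3. Higher were Cyp2b and Cyp2c genes known to be higher in female mice, among them Cyp2b13, Cyp2b9, Cyp2c39, Cyp2c40 and Cyp2c69, and also Cyp2c37. Cyp2a4, likewise known to be higher in female mice, was not among them. Lower were Cyp2c67, Cyp2c23, Cyp2d9, Cyp2f2, Cyp2c29 and Cyp2u1. Cyp2e1, the most abundant member, read 3026 ± 660 FPKM against 2911 ± 474 in control. None passed the adjusted threshold.

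Cyp2b13, a Cyp2b steroid hydroxylase, had the smallest p, but it was tested only because the L.J. libraries met the filter. Its FPKM were 0.11, 0.59 and 0.31 in control and 17.9, 2.96 and 47.4 in L.J. replicates 1, 2 and 3. All 3 L.J. libraries lay above all controls, replicate 2 by the least, and the log2 fold change was 3.54 (SE 0.66; limma adjusted p = 0.0527). Its neighbour Cyp2b9 read 26.5, 17.8 and 3.85 FPKM in control and 127, 13.0 and 190 with L.J., so replicate 2 lay inside the control range. Cyp2b10, the classical target of CAR, read 5.39, 1.18 and 0.42 FPKM in control and 4.52, 3.85 and 1.02 with L.J., and the groups overlapped.

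Cyp2c67 was the member furthest below control. It read 404, 376 and 413 FPKM in control and 70.9, 318 and 46.4 in L.J. replicates 1, 2 and 3, with no overlap, and a log2 fold change of -1.95 (SE 0.51; limma adjusted p = 0.0809). Cyp2c40, 2 genes further along the cluster, read 0, 0.22 and 0.39 FPKM in control and 3.38, 2.45 and 53.5 with L.J. (log2 fold change 2.97, SE 0.79; limma adjusted p = 0.0812). Most of that came from replicate 3, and Cyp2c40 too was tested only through the L.J. libraries. Cyp2c69 read 0.77, 3.40 and 2.11 FPKM in control and 4.24, 3.19 and 30.4 with L.J., again highest in replicate 3. Cyp2c68, between Cyp2c67 and Cyp2c40 on chromosome 19 and as close a copy, read 103, 79.9 and 85.2 FPKM in control and 82.6, 67.4 and 97.4 with L.J., and its log2 fold change was -0.12 (95% interval -0.47 to 0.23). In L.J. replicates 1 and 3, Cyp2c67 thus lay below, Cyp2c69 above and Cyp2c68 within the control range.

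The remaining Cyp2c genes divided in the same manner. Cyp2c39, known as a retinoic acid hydroxylase, read 110, 80.6 and 36.5 FPKM in control and 354, 72.1 and 461 with L.J. Cyp2c37, an arachidonic acid hydroxylase, read 56.4, 50.6 and 39.5 FPKM in control and 175, 51.1 and 226 with L.J. In both, replicates 1 and 3 stood above every control and replicate 2 within their range. Cyp2c23, an arachidonic acid epoxygenase that lies away from the main cluster on the same chromosome, read 282, 239 and 275 FPKM in control and 70.1, 204 and 155 with L.J., with no overlap (log2 fold change -1.01, SE 0.31; limma adjusted p = 0.104). Cyp2c29 read 1203 ± 118 FPKM in control and 803 ± 279 with L.J. Cyp2c70 read 558 ± 25.9 and 587 ± 82.9 FPKM and Cyp2c50, another epoxygenase, 265 ± 61.5 and 273 ± 68.0, so the means differed within the spread of their libraries. L.J. replicate 2 lay above all controls for Cyp2c70, at 682 FPKM, and below all controls for Cyp2c50, at 195 FPKM.

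**Figure D3:**
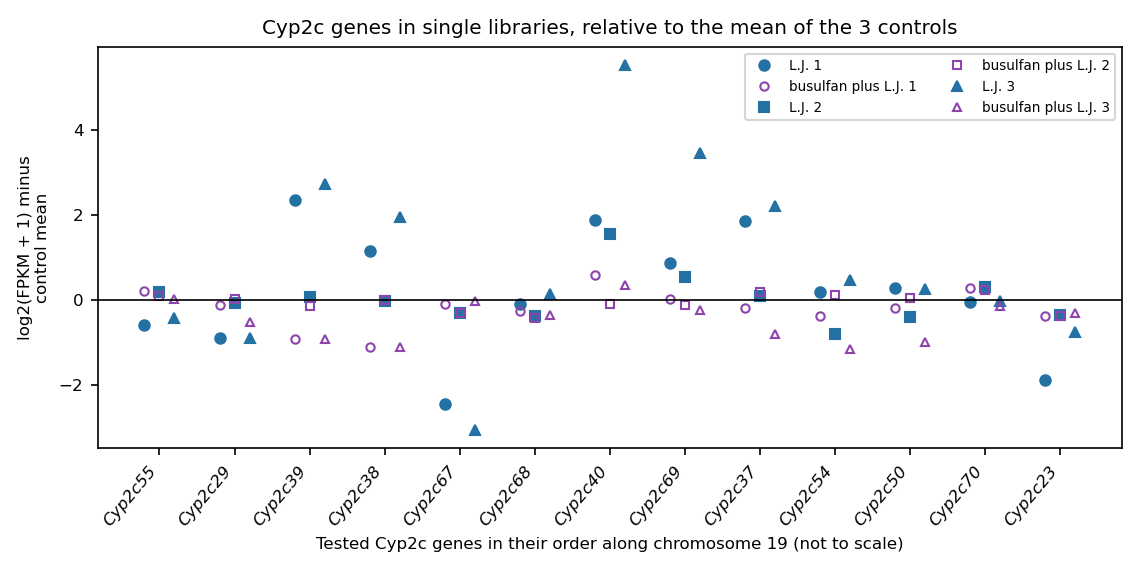
Difference in log2(FPKM + 1) from the mean of the 3 control libraries (vertical axis) for the 13 tested Cyp2c genes in their order along chromosome 19, not to scale, in single L.J. libraries (filled) and busulfan plus L.J. libraries (open). L.J. 1 and L.J. 3 lie far from 0 at Cyp2c39, Cyp2c67 and Cyp2c37, while L.J. 2 and the open symbols stay closer to 0 at these genes.

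Outside Cyp2b and Cyp2c, Cyp2d9 read 736, 538 and 600 FPKM in control and 292, 503 and 57.8 with L.J., the lowest being replicate 3. Cyp2f2 read 1059, 1041 and 1175 FPKM in control and 533, 1049 and 443 with L.J., with replicate 2 inside the control range. Cyp2u1 read 7.05, 5.26 and 10.5 FPKM in control and 1.52, 6.01 and 1.45 with L.J. (log2 fold change -1.25, SE 0.37; limma adjusted p = 0.0984). The pattern of 2 distant libraries and 1 near control therefore recurred in members on chromosomes 15, 7 and 3, but not in all members. In Cyp2d22 and Cyp2c54 replicate 2 was the only L.J. library below all controls, at 59.0 and 64.5 FPKM. Cyp2a5 differed from the pattern too. Its FPKM were 47.0, 67.6 and 76.8 in the L.J. libraries, all above the controls, replicate 2 included. Cyp2a12 lay just below all controls, its highest L.J. library being at 96.2 FPKM and its lowest control at 96.7.

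**Figure D4:**
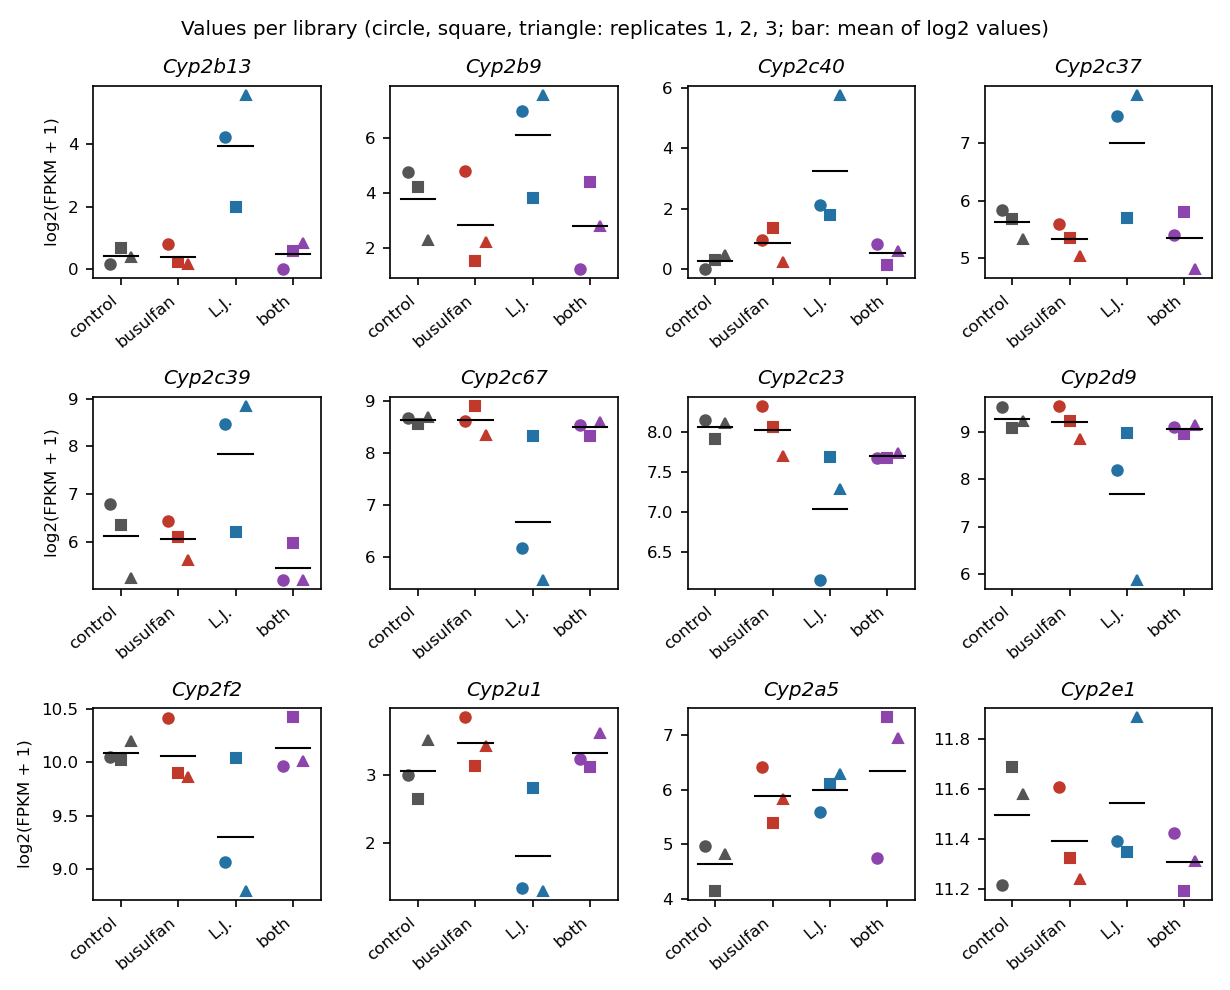
Values of 12 Cyp2 genes in each library as log2(FPKM + 1), by group ("both" is busulfan plus L.J.), with circles, squares and triangles for replicates 1, 2 and 3 and a bar at the mean of the log2 values; each panel has its own vertical scale, which does not start at 0. In the L.J. columns of Cyp2b9, Cyp2c37, Cyp2c39, Cyp2f2 and Cyp2u1 the square (replicate 2) lies with the controls, and in that of Cyp2a5 it lies with the other L.J. libraries.

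In limma, 0 of 34 members and 27 of 10786 genes (0.25%) passed. At an unadjusted p under 0.05 there were 13 members, 6 higher and 7 lower, beside 23.2% of all genes (20.1% higher and 3.14% lower), and 5 without L.J. replicate 3. Groups did not overlap for 3 members higher (Cyp2a5, Cyp2b13 and Cyp2c40) and 6 lower, beside 20.8% of all genes (17.9% and 2.87%). Cyp2b13 and Cyp2c40, tested only through the L.J. libraries, stand among the higher members in both counts. The members' median log2 fold change was -0.12 and that of all genes 0.17, and median scaling of the libraries moved the latter to -0.01 and the former to -0.30. A difference beyond 1 on the log2 scale was seen for 38.2% of the members, Cyp2b13 and Cyp2c40 among them, and 2.72% of all genes. Without L.J. replicate 2, 12 of 33 members passed, 6 higher and 6 lower, with 16.7% of all genes, Cyp2c67 having the smallest adjusted p, at 4.3e-05. Without L.J. replicates 1 and 3, the single L.J. library left gave log2 fold changes of -0.32 for Cyp2c67, -0.37 for Cyp2c23, -0.30 for Cyp2d9 and -0.25 for Cyp2u1, and of 1.45 for Cyp2a5. Cyp2b13 and Cyp2c40 then no longer met the filter. No member passed there, but with 1 library in the group that count says little. With library weights 19 members passed, beside 39.4% of all genes, and with median scaling Cyp2b13 alone did.

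In single libraries, L.J. replicate 1 had 7 members more than 1 log2 unit above the control mean and 6 below, L.J. replicate 3 had 9 and 5, and L.J. replicate 2 had 3 and 0. In these libraries 6.02%, 5.62% and 1.5% of all genes were as far from the control mean. Of the other libraries, control replicate 1 had 5 members above and 1 below the mean of the other two controls, with 3.36% of all genes, and busulfan plus L.J. replicate 2 had 4 above and 0 below, with 1.35%. The same libraries differed in genes outside the family. Of 6 tested female-biased liver genes outside the family all were higher with L.J., and 1 rose, the sulfotransferase Sult3a1 (log2 fold change 6.47; limma adjusted p = 0.016). Without L.J. replicates 1 and 3 only 3 of the 6 met the filter. The rest were tested through those libraries, so that they were higher there was built in. The summed level of the 11 listed genes was 105 FPKM in L.J. replicate 1, 71.4 in replicate 2 and 1077 in replicate 3, and between 4.25 and 6.85 in control. All 12 male-biased genes were lower, with none past the threshold, and summed to 481, 3945 and 143 FPKM with L.J. and to between 2807 and 6580 in control. All 12 acute-phase genes were higher and 2 rose, Saa1 (5.04; adjusted p = 0.0172) and Saa2 (5.54; adjusted p = 0.0428). The part of inflammation, of infiltrating neutrophils and of the sex-biased programme in the Cyp2 differences was not tested.

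Among the family's own groups, 7 of 8 Cyp2 genes known to be higher in female liver were higher with L.J., the 8 log2 fold changes having a median of 1.66. Cyp2b13 and Cyp2c40, tested only through the L.J. libraries, are among the 7, so that part of the count and of the median was built in. The exception was Cyp2a4, which read 10.5 ± 17.0 FPKM in control and 3.93 ± 3.6 with L.J., with overlap. Of 12 known to be inducible through CAR or PXR 8 were higher, with a median of 0.75. The 6 pericentral members had a median of 0.04, and 4 of them were higher. Of all genes tested 77.1% were higher, with a median of 0.17. The counts for the inducible and the pericentral members were below that share, and 7 of 8 lay near it. Without L.J. replicates 1 and 3 the medians of the 3 lists were 0.08, 0.05 and -0.12, over the 6, 11 and 6 members then tested, and that of all genes 0.03. None of these passed, and the lists overlap, as Cyp2b13 and Cyp2c39 stand in the first and the second. Of 17 genes for electron donors and haem supply none passed. Por itself read 38.5, 49.8 and 38.2 FPKM in control and 139, 35.2 and 104 in the L.J. libraries, the same 2 libraries being high (log2 fold change 0.92; limma adjusted p = 0.185). Of 20 regulators of hepatic P450 genes none passed, with Hnf4a at 0.43 (adjusted p = 0.124) and Arnt at 0.61 (0.0817). None passed among 17 genes outside the family that respond to CAR or PXR, 9 of growth hormone signalling, 3 AHR targets, 11 pericentral and 10 periportal genes.

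Busulfan plus L.J. against control asked how livers given both stand to untreated ones. Most members lay near control, and the highest difference on the log2(FPKM + 1) scale was again in Cyp2a5. Its FPKM were 26.0, 160 and 122 in the livers given both and 24.8 ± 7.17 in control, so replicate 1 lay within the control range (log2 fold change 1.69, SE 0.54; limma adjusted p = 0.542). Cyp2a12 read 131, 330 and 98.0 FPKM, and Cyp2a22 3.75, 22.4 and 2.43, both highest in replicate 2. That library also held 339 FPKM of exocrine pancreas markers, against 2.06 to 34.9 in the others, with all 8 markers above 0 and Prss2, which is at 0 outside the livers given both, at 18.96 FPKM. The part of that tissue in these values was not tested. Cyp2b13 read 0, 0.48 and 0.79 FPKM, Cyp2c67 372, 321 and 387, Cyp2c40 0.79, 0.10 and 0.52, and Cyp2d9 547, 491 and 561, so the levels seen in L.J. replicates 1 and 3 were not seen in any of the 3 libraries given both.

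No member and no gene of the table passed (0%). At an unadjusted p under 0.05 there were 2 members, Cyp2a5 higher and Cyp2c68 lower, beside 6.93% of all genes (5.17% higher and 1.76% lower), and between 1 and 4 with 1 library left out. The groups did not overlap for 3 members, Cyp2c68, Cyp2c23 and Cyp2d22, all lower, beside 11.8% of all genes, 3.76% being lower. The next smallest p values belonged to Cyp2c68 (log2 fold change -0.36), Cyp2d12 (-0.45), Cyp2a12 (0.61) and Cyp2c38 (-0.74), none past the threshold. The median of the 34 was -0.17 and that of all genes 0.04. Without busulfan plus L.J. replicate 1 the log2 fold change of Cyp2a5 was 2.49 (limma adjusted p = 0.107), and with library weights Cyp2a5 passed, beside 6.76% of all genes.

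Busulfan plus L.J. against busulfan asked what L.J. changes in livers given the drug. The groups overlapped for all but 3 of the tested members. Cyp2c68 read 86.8, 99.8 and 76.6 FPKM with busulfan and 73.2, 65.5 and 69.0 with both, without overlap (log2 fold change -0.33, SE 0.16; limma adjusted p = 1). Cyp2c38 read 48.6, 43.3 and 24.6 and then 14.97, 33.3 and 14.8 FPKM, with overlap (log2 fold change -0.90). Cyp2a5, the member that read higher with busulfan, was at 60.3 ± 22.1 FPKM there and at 103 ± 69.0 with both, and its log2 fold change of 0.47 had a 95% interval from -0.72 to 1.65. That value rested on single libraries, being -0.03 without busulfan plus L.J. replicate 2 and 1.26 without replicate 1. Cyp2a12, Cyp2c67 and Cyp2e1 read 161 ± 53.1, 398 ± 76.8 and 2699 ± 367 FPKM with busulfan and 186 ± 125, 360 ± 34.6 and 2543 ± 205 with both.

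No member and no gene passed (0%), and no member had an unadjusted p under 0.05, beside 3.73% of all genes. With 1 library left out between 0 and 2 members did. Groups did not overlap for 3 members, Cyp2a4, Cyp2c68 and Cyp2d12, all lower, beside 9.99% of all genes, 5% being lower. Cyp2c70 (log2 fold change 0.27), Cyp2a4 (-1.57) and Cyp2c29 (-0.29) completed the 5 smallest p values, each at an adjusted p of 1. The median of the members was -0.10 and that of all genes 0.00. Cyp2a4 was low in all 3 libraries given both, at 0.15, 2.02 and 3.08 FPKM, and is 1 of the close copies whose reads may be shared.

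Busulfan plus L.J. against L.J. asked what busulfan changes in livers given L.J., and shares the L.J. libraries with the comparison against control. It therefore gives no separate evidence on the members that differed with L.J. alone. Cyp2b13 read 17.9, 2.96 and 47.4 FPKM with L.J. and 0, 0.48 and 0.79 with both (log2 fold change -3.47, SE 0.66; limma adjusted p = 0.131). It was tested only through the L.J. libraries. Cyp2u1 read 1.52, 6.01 and 1.45 FPKM with L.J. and 8.40, 7.71 and 11.4 with both, without overlap (1.52, SE 0.37; adjusted p = 0.184 in limma). Cyp2c39 was at 35.6, 61.6 and 35.7 FPKM with both, below all 3 L.J. libraries (log2 fold change -2.39, SE 0.60; limma adjusted p = 0.184). Cyp2c37 and Cyp2c38 had log2 fold changes of -1.65 and -1.76 and overlapped L.J. replicate 2, at adjusted p values of 0.202 and 0.21. Against L.J. replicate 2 alone, the log2 fold changes of Cyp2u1, Cyp2c39, Cyp2c37 and Cyp2c38 were 0.52, -0.74, -0.36 and -0.71.

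No member and 3 genes of the table passed (0.0278%). The count at an unadjusted p under 0.05 was 13, 6 higher and 7 lower, beside 13.6% of all genes (2.93% and 10.7%). It was 7 without L.J. replicate 3. Groups did not overlap for 6 members higher and 4 lower, beside 13% of all genes (3.01% and 9.99%). Cyp2b13 and Cyp2c40, tested only through the L.J. libraries, are among the 4 lower. The medians of the members and of all genes were -0.06 and -0.13. Of the members 32.4%, Cyp2b13 and Cyp2c40 among them, were beyond 1 on the log2 scale, and of all genes 2.53%. Without L.J. replicate 2, 12 members passed, beside 10.8% of all genes, and with library weights 20 did, beside 24.1%. Without both L.J. replicates 1 and 3, where 1 L.J. library is left, none passed.

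**Figure D5:**
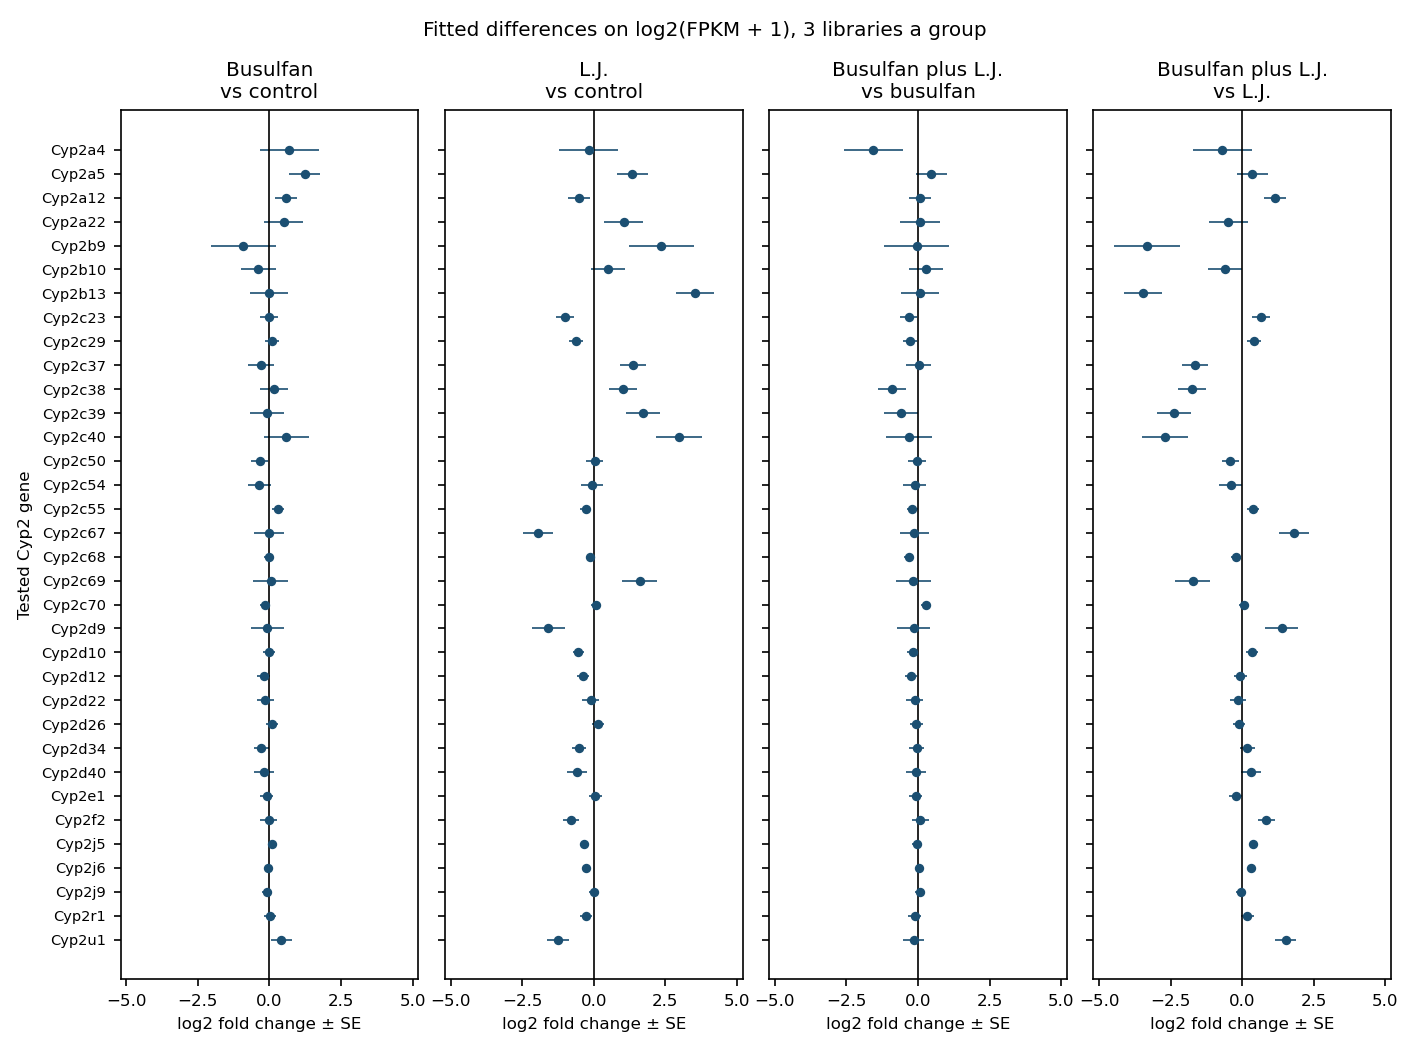
Fitted log2 fold change ± SE on log2(FPKM + 1) of the 34 tested Cyp2 genes (rows) in 4 comparisons (panels), with 3 libraries a group and a line at 0. The points spread widest in the panels with L.J. alone, from -1.95 to 3.54 against control, and lie nearest to 0 in the panel of busulfan plus L.J. against busulfan.

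The interaction asked whether the difference made by L.J. depended on busulfan, and uses all 4 groups. The smallest p belonged to Cyp2b13, with a difference of -3.46 (SE 0.93) between its log2 fold change for L.J. in livers given busulfan and in those not given it. By p, Cyp2c40 (-3.29), Cyp2c38 (-1.92), Cyp2c39 (-2.31) and Cyp2c67 (1.82) followed, each at a limma adjusted p of 0.709. Cyp2b9 was at -2.41 with a larger error (SE 1.61). Cyp2b13 and Cyp2c40 passed the filter only through the L.J. libraries, so a difference in both was built in. With L.J. replicate 2 as the only L.J. library, Cyp2c38, Cyp2c39 and Cyp2c67 were at -0.86, -0.66 and 0.19. No member and no gene passed (0%), and 5 members had an unadjusted p under 0.05, 1 with a positive and 4 with a negative value, beside 6.54% of all genes (1.03% and 5.51%). That count was 13 without L.J. replicate 2 and 2 without L.J. replicate 3, and 0 without both L.J. replicates 1 and 3. Without L.J. replicate 2, Cyp2c37, Cyp2c39, Cyp2c67, Cyp2f2 and Cyp2u1 passed, beside 2.74% of all genes, and with library weights 11 members did, beside 7.99%.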

How the data were processed

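Gene expression was measured by RNA sequencing in 12 liver libraries, 3 in each of 4 groups placed by the labels. A single table of FPKM values for 21004 genes was deposited by the authors. Reads were aligned with Bowtie 0.12.2 to mm10, per the submitters' processing notes. Which quantifier and annotation made the FPKM is not stated there. The table holds no counts, so depth, counting intervals and detection limits are unknown, and count tests were not run.

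A gene was tested if 3 or more libraries reached 1 FPKM, which left 10786, on log2(FPKM + 1), which understates the change of low genes. limma 3.58.1 in R 4.3.3 fitted 4 group means to all 12 libraries (8 residual degrees of freedom, eBayes with trend), with two-sided p-values adjusted by Benjamini-Hochberg over all genes in each of 6 comparisons and a threshold of 0.05. An exact permutation test of 3 against 3 libraries cannot go below 0.1 and was not used. The fit was tested on simulated data. Sequences come from RefSeq (GRCm38.p6) and GENCODE M21, aligned with Biopython 1.88.

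All 47 members matched a RefSeq gene by ID. In each comparison members that passed were to be named, or else the 5 with the smallest p. Levels are given for members with a mean of at least 1 FPKM in any group, and any lower or further member was chosen after its values were seen. The members and lists were chosen with earlier results of these data known, and 1 listed gene outside the family is not reported here. Same-numbered control and busulfan libraries deviated together from their group means (correlations over genes 0.399, 0.157 and 0.11), a hint from the data and not from the labels that the numbers pair them. Same-numbered busulfan and L.J. libraries did so too, more weakly (0.283, 0.117 and 0.0524). Between control and L.J. the correlations were 0.384, 0.14 and -0.0681, and each pair with busulfan plus L.J. held a negative correlation. Libraries of different numbers were not compared, so the size of such correlations without pairing is unknown. Alternatives covered the pseudocount, the filter, scaling, the variance model, library weights, the replicate block and single libraries left out.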

Additional observations from a re-analysis of the deposited data

How the results depend on the processing

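The number of Cyp2 genes past the threshold was 0 in each of the 6 comparisons and stayed at 0 with pseudocounts of 0.1 and 0.01, without a filter, with a filter of 5 FPKM, without a trend, with robust eBayes and, for the 5 comparisons of 2 groups, in the compared groups alone. With the replicate block it was 0 in all 6 comparisons, too. For L.J. against control it was 1 with median scaling, 1 with quantile normalization, 1 with the major urinary protein genes left out (Cyp2b13 each time) and 19 with library weights, and ranged from 0 to 12 with 1 library left out. For busulfan plus L.J. against control it was 1 with library weights. Against L.J. it was 20 with library weights and from 0 to 12 with 1 library left out, and for the interaction 11 and from 0 to 5. The values of 12 and 5 came without L.J. replicate 2, where the group is L.J. replicates 1 and 3. The library weights stopped before they converged, gave L.J. replicate 2 the lowest weight, 0.25, and followed the data they then tested. Of the members' named log2 fold changes, 4 changed sign. Cyp2c38 in busulfan plus L.J. against control was at 0.0719 with library weights. Cyp2c68 in L.J. against control was at 0.109 with library weights and ranged from -0.247 to 0.0147 with 1 library left out, the highest without L.J. replicate 2. Cyp2a5 in busulfan plus L.J. against busulfan was lowest, at -0.0298, when replicate 2 of the livers given both was left out and highest, at 1.26, when replicate 1 was, and Cyp2d34 in busulfan against control was at 0.0105 without control replicate 1 and at -0.501, the lowest, without control replicate 2. The cause was not tested. Depth is unknown, so members listed near 0 may be below detection.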
